A study of Mus musculus with 33 samples.

Results

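Endothelial cells from the shaft of the femur were set against endothelial cells from whole femur and tibia by RNA sequencing. The comparison holds 6 of the 33 libraries of the study, which has 3 libraries in each of 11 groups and lists them in 4 tables. Diaphysis EC is the group from the femur shaft and Bone EC the group from whole femur and tibia, both given as GFP+ cells of untreated C57BL/6 mice aged 8 to 12 weeks that carry the Cdh5-mTnG reporter. Members were chosen by these labels, 3 libraries each, and by no measured value. A further whole bone group, Vav1 control EC, was used as a second reference. It is labelled as a control, carries Vav1-Cre and R26-DTR beside Cdh5-mTnG, and received diphtheria toxin, in mice of the same strain and age. Levels are also given for Apln+ EC, GFP+ cells of whole bone from Apln-CreERT2 R26-mTmG mice of that strain and age given tamoxifen, which share a table with Diaphysis EC. Wildtype bone marrow cells (BMC) and LSK cells, a stem and progenitor sort, served to mark genes of blood cells. The labels do not say whether libraries come from separate mice, so each p-value measures the spread between these libraries, which may be technical. Bone EC stands in another table than Diaphysis EC, and Vav1 control EC in yet another, so bone region and table cannot be told apart in any test below.

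Cdh5 encodes VE-cadherin, the adhesion molecule of endothelial junctions, and its reporter marks arteries, capillaries and sinusoids alike. In long bones, column-like type H capillaries with high Emcn and Pecam1 lie near the growth plate and the endosteum, joined to arteries, and feed the sinusoids that fill the shaft. Sinusoids are wide, leaky vessels with a thin basement membrane through which blood cells pass, and their walls carry scavenger receptors and selectins. A sample of whole bone also takes in the metaphysis, which a shaft sample leaves out.

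Bones were crushed and digested with collagenase, and RNA was taken from sorted cells with a column kit. cDNA was made with SMART-Seq v4, a full-length poly(A)-primed kit, and libraries with Nextera XT (BMC with a stranded total RNA kit instead). Values are FPKM, reads per kilobase of gene and per library total, so levels of genes are comparable per length. This total was not the sum of the recovered reads given next. The total lay above that sum in each library of Diaphysis EC, Bone EC and LSK. In each library of Vav1 control EC and BMC the total lay below the sum. How the total was set was not tested. The reads recovered from the steps of the values came to 9409079 to 10744167 per Diaphysis EC library, 2716326 to 3255644 per Bone EC library, 8584438 to 10142324 per Vav1 control EC library and 8747016 to 10056135 per Apln+ EC library. At the lower depth of Bone EC, 12785 to 12878 genes reached 1 FPKM, against 11618 to 11792 in Diaphysis EC. LSK, with 1551195 to 1874677 reads, had 14925 to 18109 such genes, so a higher count is no sign of better detection. The 24 pan-endothelial markers were all measured and took 0.535 to 0.773% of summed FPKM in Diaphysis EC, 0.499 to 0.615% in Bone EC, 0.322 to 0.426% in Vav1 control EC and 0.0101 to 0.0117% in BMC. The part of the lower share of Vav1 control EC in differences from that group was not tested. Blood transcripts were present as well: 10 pan-leukocyte genes took 0.576 to 0.670% in Diaphysis EC, 0.457 to 0.559% in Bone EC and 0.485 to 0.567% in BMC. The libraries thus hold endothelial RNA, as their label says, together with RNA of blood cells. In such bulk libraries fewer cells of a type and less RNA per cell cannot be told apart. Bone EC replicate 1 stood apart in Ddx3y, a Y-linked gene, at 0.0589 scaled FPKM beside 6.76 and 2.98 in the other Bone EC libraries and 3.95, 4.8 and 4.84 in Diaphysis EC. Xist, expressed from the inactive X chromosome and overlapped by its antisense gene Tsix, was at 1.75, 1.84 and 1.25 scaled FPKM in Diaphysis EC, 8.43, 3.67 and 9.37 in Bone EC and 0.754, 1.25 and 0.612 in Vav1 control EC. It was lower in the shaft than in Bone EC by a log2 difference of -1.57 ± 0.29 (limma adjusted p = 0.0048). Bone EC replicate 1 thus held Xist with almost no Ddx3y, while each other library of Bone EC and Diaphysis EC held both. Whether those libraries mix mice of both sexes was not tested, nor was the part of sex in other differences.

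Of 12688 genes that reached 1 FPKM in 3 or more of those 6 libraries, 2534 were higher and 3041 lower in Diaphysis EC than in Bone EC, 43.9% in all (20% higher, 24.0% lower; limma on log2(scaled FPKM + 1), Benjamini-Hochberg adjusted p below 0.05). Scaled FPKM are the deposited values divided by a median-of-ratios factor per library, and a difference on the log2(scaled FPKM + 1) scale understates the change of low genes. A gene below 1 FPKM in every library of a group passed the filter only through the other group. Such a gene could be called in 1 direction only. Cd276, Col1a1, Tsix, Fam166a, Syn3 and the features at 0 in the shaft could be called only lower, and Snord55 only higher. A count of this size also separated the 2 whole bone groups: Vav1 control EC against Bone EC gave 2431 higher and 2658 lower of 12649 genes, or 40.2%. Diaphysis EC against Vav1 control EC gave 1358 higher and 1498 lower of 11814 genes, or 24.2% (11.5% higher, 12.7% lower). Each list count below is to be read beside the shares over all genes of its comparison. When 21 libraries shared one estimate of the spread, the counts were 4400, 3578 and 328 in the same order. Beside the groups compared, this fit over 21 libraries took in Apln+ EC, LSK and treated endothelium. The treated groups were Irradiated bone EC (9 Gy) and Vav1 DTX EC (after Vav1-driven blood cell ablation). Its spread is therefore not that of untreated endothelium alone. The balance of the first comparison hung on the scaling and on the filter. A scaling by the pan-endothelial markers gave 3522 higher and 1638 lower and moved the median of all genes from 0.05 to 0.32 on the log2 scale. With the values as deposited the split was 3219 to 2800. Among 7737 genes with a mean of at least 5 FPKM it was 2208 higher to 1374 lower. Scaling to TPM and by the pan-endothelial markers moved the median of all genes to 0.22 and -0.31 between Diaphysis EC and Vav1 control EC (3094 higher and 605 lower, then 275 and 1970), and to -0.23 and 0.60 between Vav1 control EC and Bone EC (678 and 3882, then 7009 and 1062). The comparisons share libraries pairwise, so their values are given side by side for each gene and are not independent of each other.

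Differences against the Bone EC libraries moved with gene length and with overlap on the opposite strand. Over 4 equal bins of genes by length, from shortest to longest, the median log2 difference of Diaphysis EC from Bone EC was 0.22, 0.27, 0.01 and -0.33. The same bins gave 0.21, 0.21, 0.01 and -0.26 for Vav1 control EC against Bone EC, and 0.01, 0.05, -0.01 and -0.05 for Diaphysis EC against Vav1 control EC. Removing a smooth trend in length and GC content from each library changed the calls against Bone EC to 3279 higher and 2017 lower. A set of 383 genes with at least 80% of their exons covered by exons of the other strand took 1.28 to 1.30% of summed FPKM in Bone EC, 0.0528 to 0.0552% in Diaphysis EC and 0.0475 to 0.0523% in Vav1 control EC. Within the table of Bone EC this share was 1.65 to 1.76% in LSK, 0.459 to 0.799% in Lin- and 0.317 to 0.361% in BMC, so it varied inside that table. Of 3997 tested genes that overlap another gene on the opposite strand, 35.7% were lower in Diaphysis EC than in Bone EC and 237 differed by less than -3 on the log2 scale. Against Vav1 control EC, 12.3% of 3312 such genes were lower and 0 differed by less than -3. Without all overlapping genes, 1498 were higher and 1194 lower than in Bone EC (of 7361). The part of these properties of the Bone EC libraries in any one gene's difference was not tested. The difference from Vav1 control EC is given for most genes described.

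**Figure D1:**
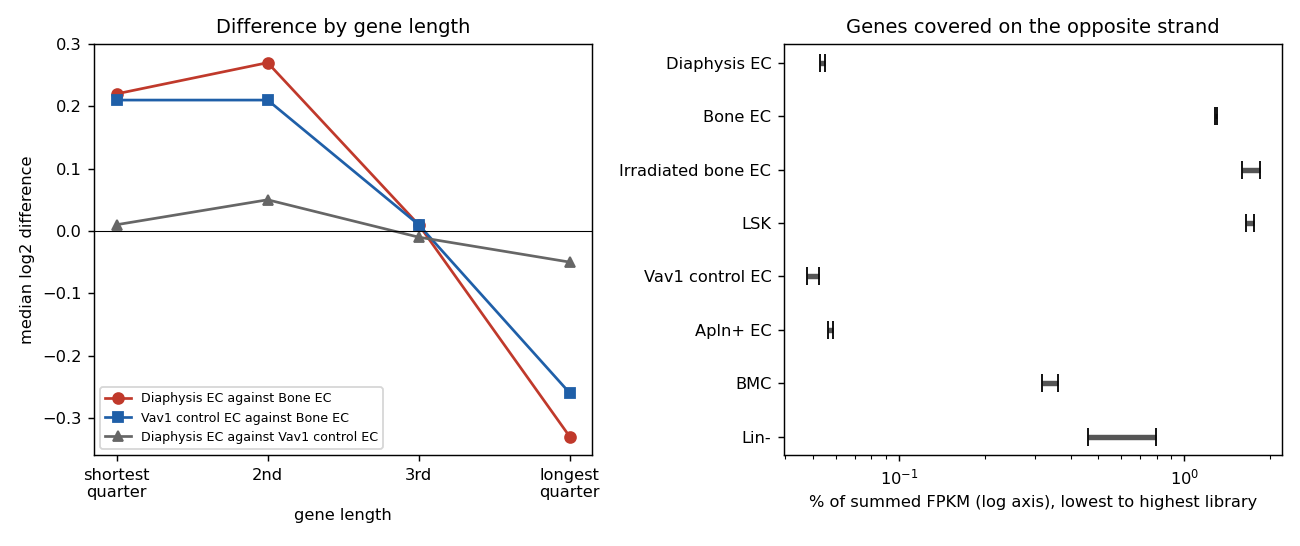
Left: median log2 difference of all genes tested, by bin of gene length, for the 3 comparisons. Right: percent of summed FPKM (log axis) held by 383 genes covered on the opposite strand, from the lowest to the highest of 3 libraries per group. The lines against Bone EC fall from 0.22 and 0.21 in the shortest bin to -0.33 and -0.26 in the longest, while the line between Diaphysis EC and Vav1 control EC stays between 0.05 and -0.05.

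The summed level of the pan-endothelial list did not fall in the shaft, yet several of its long-known members were lower than in Bone EC. Plvap, at means of 1455 scaled FPKM in the shaft and 831 in Bone EC, and Cldn5, at 461 and 220, weigh heavily in that sum. Both were called higher, so the sum does not show that the other members kept their level. Of 24 members tested, 2 were higher and 10 lower than in Bone EC, with a median log2 difference of -0.14 beside 0.05 over all genes (0.18 beside 0.32 under pan-endothelial scaling, which is built from this list). Against Vav1 control EC 10 were higher and 0 lower, with a median of 0.47 beside -0.00 over all genes. Cdh5 (chr8:104101625-104144511, plus strand, GRCm38), the gene of the reporter, had levels of 22.0, 25 and 33.1 scaled FPKM in Diaphysis EC and 64.0, 89.4 and 95.8 in Bone EC. The groups did not overlap, and the log2 difference was -1.60 ± 0.20 (SE, n = 3 and 3, limma adjusted p = 7.6e-04). In Vav1 control EC, Cdh5 stood at 18.0, 25.8 and 28.7 scaled FPKM, a range that overlapped that of the shaft, and the log2 difference of Diaphysis EC from it was 0.16 ± 0.19 (limma adjusted p = 0.58). The Bone EC level of Cdh5 was thus the one that stood apart.

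Pecam1, the platelet and endothelial adhesion molecule, followed the same order, with levels of 27.5, 34.0 and 36.3 scaled FPKM in Diaphysis EC, 65.7, 65.0 and 71.3 in Bone EC, and 31.7, 35.8 and 38.4 in Vav1 control EC. Its log2 difference was -1.03 ± 0.13 against Bone EC (limma adjusted p = 8.2e-04, -0.64 after the length and GC trend was removed) and -0.10 ± 0.12 against Vav1 control EC (limma adjusted p = 0.58). Emcn, the endomucin of veins, sinusoids and type H capillaries, was at 40.8, 57.1 and 65.2 scaled FPKM in the shaft and 45.3, 63.5 and 70.6 in Bone EC. These groups overlapped, with a log2 difference of -0.14 ± 0.22 (limma adjusted p = 0.64). In Vav1 control EC Emcn was at 28.6, 31.8 and 39.8 scaled FPKM, below every shaft library, and the shaft was higher by 0.69 ± 0.18 on the log2 scale (limma adjusted p = 0.031). Podxl, a sialomucin of the luminal membrane, was at 5.18, 3.87 and 9.84 scaled FPKM in Diaphysis EC and 24.6, 34.0 and 29.9 in Bone EC, a log2 difference of -2.14 ± 0.28 (limma adjusted p = 9.8e-04), and its log2 difference from Vav1 control EC was -0.76 ± 0.26 (limma adjusted p = 0.067). The higher members were Cldn5, a tight junction claudin, and Plvap, which spans the diaphragms of fenestrae. Cldn5 was at 370, 428 and 585 scaled FPKM in the shaft against 179, 234 and 248 in Bone EC. For Cldn5 the log2 differences were 1.05 ± 0.20 (limma adjusted p = 0.0053) and 1.02 ± 0.18 from Vav1 control EC (limma adjusted p = 0.0075). For Plvap these log2 differences were 0.80 ± 0.20 and 0.77 ± 0.17 (limma adjusted p = 0.015 and 0.016). In the fit over 21 libraries, adjusted p rose to 0.096 for Cldn5 and 0.16 for Plvap, and without the filter on low values to 0.052 for Plvap.

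The tip and type H list, 16 genes of sprouting tip cells and type H capillaries, leaned to lower levels in the shaft: 9 members were lower and 4 higher than in Bone EC (median log2 difference -0.81 beside 0.05 over all genes), and 8 lower and 3 higher than in Vav1 control EC (median -0.45 beside -0.00). Apln (chrX:48025146-48034853, minus strand, GRCm38), the apelin ligand of sprouting endothelium, was at 0.818, 0.484 and 0.977 scaled FPKM in Diaphysis EC. Its levels were 9.11, 10.8 and 13.1 scaled FPKM in Bone EC and 8.04, 6.80 and 8.60 in Vav1 control EC. All shaft libraries lay below all whole bone libraries of both tables, 14.5-fold in the ratio of Bone EC to Diaphysis EC means. The log2 differences were -2.77 ± 0.17 against Bone EC (limma adjusted p = 1.5e-05) and -2.33 ± 0.15 against Vav1 control EC (limma adjusted p = 6.9e-04). Exons of Apln overlap no other gene, and its value after the length and GC trend was removed was -2.84. In the Apln+ EC libraries, marked through an Apln-CreERT2 allele, Apln itself was at 0.399, 0.931 and 1.25 scaled FPKM.

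The apelin receptor gene Aplnr was at 23.5, 37.9 and 35.1 scaled FPKM in Diaphysis EC, 138, 124 and 151 in Bone EC and 75.1, 74.8 and 84.1 in Vav1 control EC. Again no shaft library reached any whole bone library, with log2 differences of -2.09 ± 0.19 (limma adjusted p = 1.2e-04) and -1.26 ± 0.17 (limma adjusted p = 0.0031). Ramp3, an accessory protein of the adrenomedullin receptor, was at 6.03, 4.66 and 6.49 scaled FPKM in the shaft, 30.1, 39.1 and 43.7 in Bone EC and 27.5, 31.1 and 34.1 in Vav1 control EC. The log2 differences of Ramp3 were -2.52 ± 0.17 (limma adjusted p = 2.7e-05) and -2.24 ± 0.13 (limma adjusted p = 4.8e-04). In Apln+ EC, listed in the table of the shaft libraries, Ramp3 levels were 69.5, 340 and 304 scaled FPKM and Aplnr levels 95.9, 306 and 327. Replicate 1 of Apln+ EC held 0.267% of summed FPKM in the pan-endothelial list against 1.37 and 1.4% in the others.

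Cd276 (B7-H3) was at 0.391, 0.667 and 0.521 scaled FPKM in the shaft against 4.56, 3.48 and 4.96 in Bone EC and 2.86, 2.07 and 2.90 in Vav1 control EC, without overlap. Its log2 differences were -1.80 ± 0.16 (limma adjusted p = 1.2e-04) and -1.23 ± 0.15 (limma adjusted p = 0.0021). Cd276 passed the filter only through the whole bone libraries, so it could be called only lower. Apln lay near the same limit in the shaft. Both were still called lower than in Bone EC without the filter on low values. Kcne3, a potassium channel subunit enriched in tip cells, differed by -1.44 ± 0.23 and -1.19 ± 0.17 on the log2 scale (limma adjusted p = 0.0022 and 0.0033). Mcam, an adhesion molecule of endothelium and pericytes, was called against Bone EC, with a log2 difference of -1.33 ± 0.19 (limma adjusted p = 0.0015), and differed by -0.50 ± 0.17 from Vav1 control EC (limma adjusted p = 0.063). Pdgfb, which recruits pericytes, also passed against Bone EC, at -1.18 ± 0.25 on the log2 scale (limma adjusted p = 0.0078), and was at -0.38 ± 0.22 from Vav1 control EC (limma adjusted p = 0.24). A pass in one comparison and not in the other does not show that the differences differ, which was not tested.

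Some members of the list ran the other way. Esm1 (endocan), a classical tip cell secretory product, was at 30.1, 27.9 and 29.3 scaled FPKM in the shaft, 8.34, 14.0 and 14.8 in Bone EC and 12.8, 13.3 and 18.4 in Vav1 control EC. Every shaft library was above every whole bone library, with log2 differences of 1.21 ± 0.20 (limma adjusted p = 0.0028) and 0.96 ± 0.14 (limma adjusted p = 0.0038). Angpt2, the Tie2 ligand stored by activated endothelium, was at 5.64, 6.79 and 6.60 scaled FPKM in the shaft against 2.37, 2.56 and 4.13 in Bone EC. It differed, on the log2 scale, by 0.89 ± 0.18 against Bone EC (limma adjusted p = 0.0069, 0.055 in the fit over 21 libraries) and 0.96 ± 0.13 against Vav1 control EC (limma adjusted p = 0.0032). The Notch ligand gene Dll4, a tip cell mark, was at 18.6, 21.4 and 21.2 scaled FPKM in Diaphysis EC, 18.7, 19.6 and 20.2 in Bone EC and 17.7, 18.0 and 18.4 in Vav1 control EC. The shaft and Bone EC values of Dll4 overlapped, and its log2 difference was 0.06 ± 0.11 (limma adjusted p = 0.67). The tip and type H list therefore did not shift as one block: Ramp3 and Kcne3 were low in the shaft while Esm1 and Angpt2 were high.

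**Figure D2:**
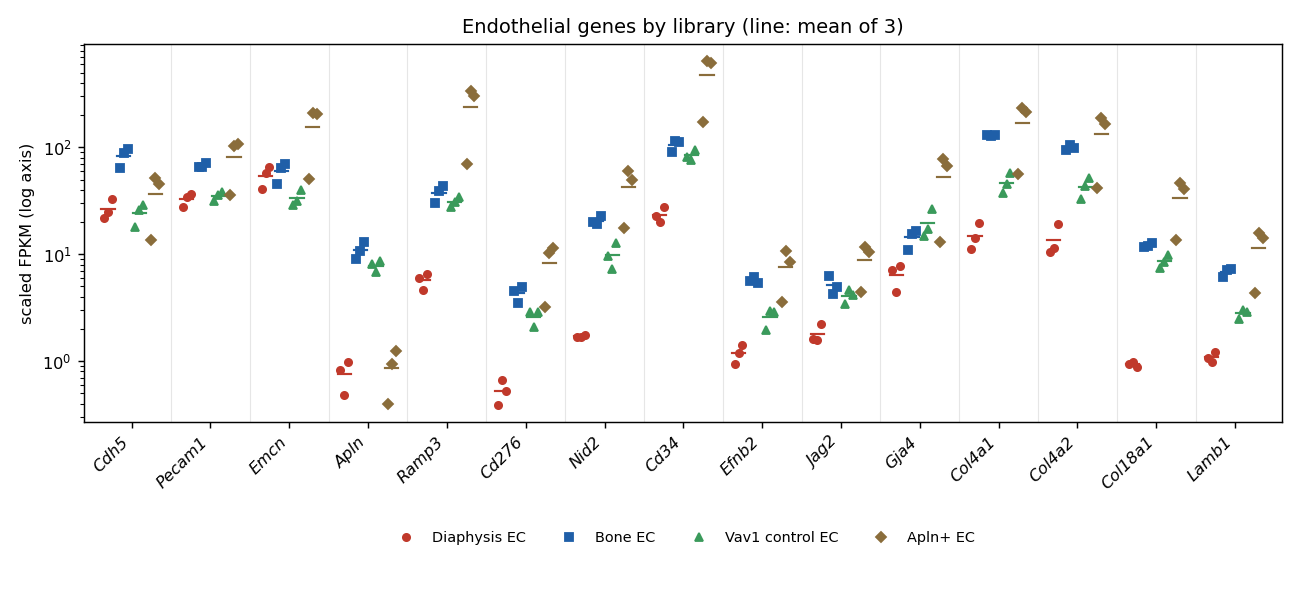
Scaled FPKM (log axis) of 15 endothelial genes in each library of 4 groups, with a line at the mean of 3. Apln, Ramp3, Cd276, Nid2, Cd34, Gja4, Col4a1, Col4a2 and Col18a1 lie lower in every Diaphysis EC library than in every Bone EC and Vav1 control EC library, while Cdh5 and Pecam1 of Diaphysis EC lie near Vav1 control EC.

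Of 19 arterial genes tested, 8 were lower and 1 higher than in Bone EC (24.0% and 20% over all genes, median log2 difference -0.38). Against Vav1 control EC 4 of 18 were lower and 1 higher (12.7% and 11.5% over all genes, median -0.31). Cd34, a sialomucin of arterial and capillary endothelium that also marks progenitors, was at 22.6, 19.9 and 27.9 scaled FPKM in the shaft, 90.0, 115 and 113 in Bone EC and 81.8, 75.7 and 94.6 in Vav1 control EC. The shaft lay below both whole bone groups, by -2.14 ± 0.16 (limma adjusted p = 4.4e-05) and -1.79 ± 0.13 (limma adjusted p = 9.5e-04) on the log2 scale. Cd34 was higher still in LSK, at a mean of 339 scaled FPKM, so Cd34 does not mark endothelium alone. Efnb2, ephrin-B2 of arteries, was at 0.940, 1.19 and 1.42 scaled FPKM in the shaft against 5.62, 6.08 and 5.41 in Bone EC and 1.97, 2.93 and 2.88 in Vav1 control EC. Its log2 differences were -1.62 ± 0.14 (limma adjusted p = 8.5e-05) and -0.70 ± 0.16 (limma adjusted p = 0.017).

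Gja4 (connexin 37), a gap junction gene of arterioles, was at 7.06, 4.42 and 7.79 scaled FPKM in the shaft, 11, 15.6 and 16.6 in Bone EC and 14.8, 17.1 and 26.5 in Vav1 control EC. The shaft lay below both whole bone groups, with log2 differences of -1.06 ± 0.22 (limma adjusted p = 0.0074, 0.12 in the fit over 21 libraries) and -1.44 ± 0.24 (limma adjusted p = 0.0061). Jag2, a Notch ligand, differed by -1.12 ± 0.17 from Bone EC (limma adjusted p = 0.0017) and by -0.85 ± 0.14 from Vav1 control EC (limma adjusted p = 0.0057) on the log2 scale. The arterial gene called higher was Fbln5, a protein of elastic fibres, with log2 differences of 0.85 ± 0.17 (limma adjusted p = 0.007, 0.11 in the fit over 21 libraries) and 0.71 ± 0.20 (limma adjusted p = 0.037). Gja5 and Hey1 of the arterial list did not pass in either comparison.

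Of 13 Notch pathway genes tested, 8 were lower and 1 higher than in Bone EC (24.0% and 20% over all genes, median log2 difference -0.71). Against Vav1 control EC 3 were lower and 3 higher (12.7% and 11.5% over all genes, median -0.32). The receptor gene Notch1 was at 2.79, 2.28 and 3.63 scaled FPKM in the shaft, 11.1, 10.9 and 10.3 in Bone EC and 3.30, 4.07 and 4.28 in Vav1 control EC. Shaft and Vav1 control values overlapped. The log2 differences of Notch1 were -1.60 ± 0.15 (limma adjusted p = 1.6e-04) and -0.32 ± 0.15 (limma adjusted p = 0.16). Notch4, the endothelial receptor of the family, showed the same order at 1.93, 1.56 and 3.04 scaled FPKM in the shaft, 6.85, 7.53 and 7.62 in Bone EC and 3.03, 3.46 and 5.61 in Vav1 control EC. For Notch4 the log2 difference from Bone EC was -1.42 ± 0.18 (limma adjusted p = 8.4e-04, -0.78 with the length and GC trend removed) and that from Vav1 control EC -0.65 ± 0.23 (limma adjusted p = 0.074). Lfng, a glycosyltransferase that tunes Notch receptors, was at 12.2, 11.8 and 8.96 scaled FPKM in the shaft and 26, 26.2 and 26.3 in Bone EC. For Lfng the log2 differences were -1.19 ± 0.14 (limma adjusted p = 4.9e-04) and, from Vav1 control EC, -0.32 ± 0.13 (limma adjusted p = 0.11). Hes1, a target of Notch and of other signals, was the member called higher, at 124, 177 and 179 scaled FPKM in the shaft, 72.2, 90.0 and 78.2 in Bone EC and 42.1, 49.2 and 68.5 in Vav1 control EC. Hes1 passed in both comparisons, at 0.97 ± 0.17 (limma adjusted p = 0.0037, 0.11 in the fit over 21 libraries) and 1.59 ± 0.20 (limma adjusted p = 0.0026) on the log2 scale.

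The sheet beneath endothelium is built of collagen IV and laminin networks joined by nidogens and perlecan, and its genes had the lowest median log2 difference of the endothelial lists. Of 20 genes tested, 14 were lower and 2 higher than in Bone EC, with a median log2 difference of -1.47. The count was 10 lower and 3 higher of 19 against Vav1 control EC (median -0.57), and with the length and GC trend removed it was 14 lower and 3 higher against Bone EC. Vav1 control EC itself had 13 lower and 0 higher of 20 against Bone EC (median -0.93), so a part of this list also moved between the whole bone groups.

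Col4a1 and Col4a2 encode the chains of the main collagen IV trimer and lie head to head on chromosome 8, so their starts are shown first. In RefSeq (GRCm38.p6) the window from 250 bases before to 50 bases after the start is chr8:11312777-11313076 on the minus strand for Col4a1 and chr8:11312555-11312854 on the plus strand for Col4a2. Capitals mark the 78 bases that both windows share, at chr8:11312777-11312854, within which the transcripts overlap by 22 bases.

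Col4a1: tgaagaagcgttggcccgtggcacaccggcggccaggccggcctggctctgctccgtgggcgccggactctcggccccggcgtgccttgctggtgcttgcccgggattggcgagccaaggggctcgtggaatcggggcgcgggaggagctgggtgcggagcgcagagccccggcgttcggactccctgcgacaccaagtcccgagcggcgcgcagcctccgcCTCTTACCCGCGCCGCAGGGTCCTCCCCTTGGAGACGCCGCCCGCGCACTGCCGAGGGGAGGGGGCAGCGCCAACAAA
Col4a2: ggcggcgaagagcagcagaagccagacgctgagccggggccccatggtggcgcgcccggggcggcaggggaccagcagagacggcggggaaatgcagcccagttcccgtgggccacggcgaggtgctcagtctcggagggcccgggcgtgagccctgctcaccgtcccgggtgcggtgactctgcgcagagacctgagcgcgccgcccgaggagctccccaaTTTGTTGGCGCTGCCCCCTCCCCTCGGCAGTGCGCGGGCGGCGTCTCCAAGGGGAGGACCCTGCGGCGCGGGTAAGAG

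The shared stretch has 73.1% G or C. GGGCGG, searched on both strands, occurs 1 time in the Col4a1 window and 3 times in the Col4a2 window, of which 1 lies in the shared bases, and is held by 35.7% of 32851 such mouse windows. CCAAT occurs 1 time in each window and in neither wholly within the shared bases (37.4% of windows hold it), and TATAAA in neither (13.6%). Col4a1 was at 11.3, 14.1 and 19.5 scaled FPKM in Diaphysis EC, 131, 129 and 132 in Bone EC and 37.2, 45.1 and 57.0 in Vav1 control EC. The 3 groups did not overlap, and the Bone EC mean was 8.71-fold that of the shaft. Log2 differences of Col4a1 were -3.07 ± 0.18 (limma adjusted p = 1.1e-05) and -1.57 ± 0.21 from Vav1 control EC (limma adjusted p = 0.0029).

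Col4a2 kept the same order, with levels of 10.6, 11.4 and 19.1 scaled FPKM in the shaft, 94.2, 106 and 99.3 in Bone EC and 32.6, 43.3 and 52.1 in Vav1 control EC. In log2 terms the differences were -2.82 ± 0.21 (limma adjusted p = 4.0e-05) and -1.57 ± 0.23 (limma adjusted p = 0.0039). In Apln+ EC, Col4a1 was at 56.5, 236 and 214 scaled FPKM and Col4a2 at 41.9, 189 and 166, all above the shaft libraries of the same table. Within each library of these 4 groups Col4a1 was the higher of the pair.

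Col18a1, the source of endostatin, was at 0.946, 0.976 and 0.876 scaled FPKM in the shaft, 11.7, 11.9 and 12.7 in Bone EC and 7.50, 8.51 and 9.85 in Vav1 control EC. Its exons overlap no other gene. The shaft fell far below both whole bone groups, at log2 differences of -2.76 ± 0.11 (limma adjusted p = 1.3e-06) and -2.30 ± 0.12 (limma adjusted p = 4.8e-04). Nid2, a nidogen that joins collagen IV to laminin, was at 1.70, 1.70 and 1.74 scaled FPKM in the shaft, 20, 19.0 and 22.6 in Bone EC and 9.69, 7.33 and 12.7 in Vav1 control EC. The log2 differences of Nid2, -2.99 ± 0.12 (limma adjusted p = 1.0e-06) and -1.97 ± 0.18 (limma adjusted p = 0.0012) from Vav1 control EC, left no overlap either. Nid1, its sister gene, was less far apart, at 25.1, 36.8 and 37.2 scaled FPKM in the shaft against 58.1, 58.0 and 67.0 in Bone EC and 23.3, 24.8 and 31.0 in Vav1 control EC. Nid1 passed against Bone EC (log2 difference -0.88 ± 0.17, limma adjusted p = 0.0051, 0.096 in the fit over 21 libraries, -0.50 with the length and GC trend removed and -0.56 under pan-endothelial scaling) and not against Vav1 control EC (0.32 ± 0.17, limma adjusted p = 0.21).

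Among laminins, Lamb1 was at 1.08, 0.990 and 1.21 scaled FPKM in the shaft, 6.14, 7.17 and 7.25 in Bone EC and 2.46, 3.01 and 2.91 in Vav1 control EC. It passed in both comparisons, with log2 differences of -1.91 ± 0.13 (limma adjusted p = 2.3e-05) and -0.85 ± 0.12 (limma adjusted p = 0.0034). Lama4, the endothelial alpha chain, likewise differed by -1.81 ± 0.16 (limma adjusted p = 1.1e-04) and -0.62 ± 0.18 (limma adjusted p = 0.037) on the log2 scale. Lamc1, the gamma chain of most laminins, was lower than in Bone EC at a log2 difference of -1.78 ± 0.17 (limma adjusted p = 1.8e-04), while against Vav1 control EC the value was -0.05 ± 0.20 (limma adjusted p = 0.87). Hspg2 (perlecan) was at 1.63, 1.67 and 3.25 scaled FPKM in the shaft and 11.8, 12.5 and 14.8 in Bone EC, a log2 difference of -2.17 ± 0.21 (limma adjusted p = 1.7e-04). Shaft and Vav1 control values of Hspg2 overlapped (3.10, 3.63 and 5.07 scaled FPKM in the latter), with a log2 difference of -0.64 ± 0.22 (limma adjusted p = 0.069). Agrn (agrin) was lower by both references, at -1.72 ± 0.15 (limma adjusted p = 1.1e-04) and -0.57 ± 0.17 (limma adjusted p = 0.044) on the log2 scale. The list's higher members against Bone EC were Mgp, an inhibitor of calcification, and Igfbp7, a secreted binding protein. Mgp was at 65.3, 45.1 and 92.8 scaled FPKM in the shaft and 15.5, 35.5 and 38.7 in Bone EC (log2 difference 1.19 ± 0.37, limma adjusted p = 0.034). The Mgp call was lost without Bone EC replicate 1 (0.80, limma adjusted p = 0.056), without Diaphysis EC replicate 1 (limma adjusted p = 0.077) without Diaphysis EC replicate 3 (limma adjusted p = 0.1), and, like the Igfbp7 call, without the filter on low values (limma adjusted p = 0.084 and 0.1) and in the fit over 21 libraries (limma adjusted p = 0.12 and 0.22). Igfbp7 (0.72 ± 0.23, limma adjusted p = 0.038) was also lost when any library but Diaphysis EC replicate 1 was left out (limma adjusted p = 0.055 to 0.10).

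Of 9 VEGF ligands and receptors tested, 4 were lower and 0 higher than in Bone EC, and 2 lower and 2 higher than in Vav1 control EC. Pan-endothelial scaling left 0 calls, and removing the length and GC trend left 0 lower and 1 higher. Kdr, the main VEGF receptor, was at 40, 53.3 and 60.5 scaled FPKM in the shaft, 83.6, 73.5 and 98.4 in Bone EC and 36.5, 39.7 and 44.3 in Vav1 control EC. Its log2 difference from Bone EC was -0.73 ± 0.18 (limma adjusted p = 0.014). The Kdr call was lost without Bone EC replicate 3 (-0.62, limma adjusted p = 0.051), with the length and GC trend removed (-0.27, limma adjusted p = 0.24), under pan-endothelial scaling (limma adjusted p = 0.11) and in the fit over 21 libraries (limma adjusted p = 0.15). Against Vav1 control EC the log2 difference of Kdr was 0.35 ± 0.15 (limma adjusted p = 0.13). Flt1, Flt4 and Nrp2 were called lower at log2 differences of -0.75 ± 0.19, -0.68 ± 0.20 and -0.75 ± 0.18 (limma adjusted p = 0.017, 0.026 and 0.013), and each of these calls was lost once length and GC were accounted for (limma adjusted p = 0.38, 0.46 and 0.3). From Vav1 control EC they differed by -0.08 ± 0.17, 0.58 ± 0.16 and 0.48 ± 0.15 on the log2 scale (limma adjusted p = 0.75, 0.034 and 0.048). Flt1 was also lost without Bone EC replicate 2 or 3 or Diaphysis EC replicate 1 or 2 (limma adjusted p up to 0.057), and Flt4 without Bone EC replicate 1 or 3 or Diaphysis EC replicate 1 or 2 (up to 0.086). Ligand genes Vegfa, Vegfb, Vegfc and Pgf did not pass against Bone EC.

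Of the angiopoietin and Tie genes, 2 of 6 tested were lower and 1 higher than in Bone EC (24.0% lower and 20% higher over all genes). Tie1 was at 25.5, 35.8 and 43.2 scaled FPKM in the shaft, 74.0, 68.5 and 94.6 in Bone EC and 51.0, 46.9 and 58.0 in Vav1 control EC. The Tie1 log2 differences were -1.18 ± 0.21 (limma adjusted p = 0.0038) and -0.57 ± 0.18 (limma adjusted p = 0.051). Tek (Tie2), the angiopoietin receptor, overlapped between shaft and Bone EC at 30.3, 41.3 and 39.9 against 42, 34.6 and 44.3 scaled FPKM, with a log2 difference of -0.12 ± 0.16 (limma adjusted p = 0.57), and was higher in the shaft than in Vav1 control EC by 0.68 ± 0.13 (limma adjusted p = 0.0089). Angpt2, described above, was the higher member.

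Of 17 BMP and TGF-beta genes tested, 6 were higher and 7 lower than in Bone EC (20% and 24.0% over all genes). Against Vav1 control EC 6 of 16 were higher and 3 lower (11.5% and 12.7% over all genes). The BMP target Id1, an inhibitor of basic helix-loop-helix factors, was at 202, 218 and 322 scaled FPKM in the shaft, 87.9, 117 and 86.5 in Bone EC and 113, 129 and 152 in Vav1 control EC. All shaft values were above all whole bone values, with log2 differences of 1.32 ± 0.21 (limma adjusted p = 0.0022) and 0.90 ± 0.18 (limma adjusted p = 0.011). Id3 was at 453, 539 and 707 scaled FPKM against 213, 284 and 282 in Bone EC and 256, 294 and 357 in Vav1 control EC. For Id3 the log2 differences were 1.11 ± 0.20 (limma adjusted p = 0.0037, 0.061 in the fit over 21 libraries) and 0.91 ± 0.18 (limma adjusted p = 0.011). The ligand gene Bmp6 was at 10.2, 15.5 and 12.4 scaled FPKM in the shaft and 4.87, 6.58 and 7.95 in Bone EC, and its log2 differences were 0.88 ± 0.20 (limma adjusted p = 0.011) and 0.52 ± 0.15 (limma adjusted p = 0.046). Bmp2 was higher too, at 0.67 ± 0.15 (limma adjusted p = 0.009, 0.09 in the fit over 21 libraries) and 0.68 ± 0.16 (limma adjusted p = 0.019) on the log2 scale. Among the lower members, the inhibitory Smad7 was at 2.04, 2.77 and 2.54 scaled FPKM in the shaft, 9.00, 8.20 and 6.55 in Bone EC and 3.74, 4.6 and 4.12 in Vav1 control EC. Smad7 passed against both groups, at -1.37 ± 0.15 (limma adjusted p = 4.6e-04) and -0.57 ± 0.13 (limma adjusted p = 0.018) on the log2 scale.

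The coreceptor gene Eng (endoglin) was at 48.5, 57.2 and 68.0 scaled FPKM in the shaft, 112, 116 and 149 in Bone EC and 48.6, 51.0 and 57.8 in Vav1 control EC. Here the shaft overlapped with one whole bone group and not with the other, with log2 differences of -1.11 ± 0.17 (limma adjusted p = 0.0019) and 0.15 ± 0.13 (limma adjusted p = 0.44). Tgfbr2 had the same pattern, at -0.83 ± 0.12 (limma adjusted p = 0.0013, 0.09 under pan-endothelial scaling) and -0.03 ± 0.10 (limma adjusted p = 0.87) on the log2 scale. Ltbp4, which binds latent TGF-beta in the matrix, was at 6.47, 3.44 and 9.45 scaled FPKM in the shaft and 18.7, 18.5 and 21.8 in Bone EC. Its log2 differences were -1.55 ± 0.28 (limma adjusted p = 0.0042, -0.95 with the length and GC trend removed) and -1.19 ± 0.28 (limma adjusted p = 0.02). Tgfb1, the ligand, was lower by both references at -0.78 ± 0.11 (limma adjusted p = 0.0012, 0.096 under pan-endothelial scaling) and -0.53 ± 0.08 (limma adjusted p = 0.0049).

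Of 11 sinusoidal genes tested, 3 were higher and 2 lower than in Bone EC (median log2 difference 0.11), near the 20% and 24.0% over all genes. Against Vav1 control EC 8 of 12 were higher and 1 lower (11.5% and 12.7% over all genes, median 0.99). Fcgr2b (chr1:170958617-170976547, minus strand, GRCm38), an Fc receptor of sinusoidal endothelium and B cells, was at 99, 108 and 116 scaled FPKM in the shaft, 38.0, 37.5 and 51.6 in Bone EC and 43.4, 42 and 46.7 in Vav1 control EC. All 3 shaft libraries were above all others, by log2 differences of 1.34 ± 0.15 (limma adjusted p = 4.5e-04) and 1.28 ± 0.09 (limma adjusted p = 9.5e-04). Gpr182, an atypical chemokine receptor of sinusoids, was at 88.4, 94.5 and 112 scaled FPKM in the shaft, 40.7, 37.6 and 59.8 in Bone EC and 31.7, 32.4 and 40.3 in Vav1 control EC. The log2 differences of Gpr182 were 1.10 ± 0.19 (limma adjusted p = 0.0033, 0.057 in the fit over 21 libraries) and 1.49 ± 0.12 (limma adjusted p = 0.0011). In Apln+ EC, Fcgr2b was at 24.4, 9.19 and 7.88 scaled FPKM.

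The scavenger receptor genes divided by reference. Stab1 was at 13.3, 14.7 and 22.0 scaled FPKM in the shaft, 34.2, 33.0 and 40.3 in Bone EC and 11.4, 13.4 and 17.6 in Vav1 control EC. Its log2 difference from Bone EC was -1.09 ± 0.19 (limma adjusted p = 0.0036, -0.54 with the length and GC trend removed, limma adjusted p = 0.07 in the fit over 21 libraries), and that from Vav1 control EC 0.23 ± 0.20 (limma adjusted p = 0.45). Stab2 overlapped between shaft and Bone EC (-0.34 ± 0.17, limma adjusted p = 0.14; -0.49 and 0.05 without Diaphysis EC replicate 3) and was higher than in Vav1 control EC by 0.90 ± 0.17 (limma adjusted p = 0.0097). Mrc1, the mannose receptor, was at 36.5, 44.3 and 42.4 scaled FPKM in the shaft, 40.1, 42.4 and 52.4 in Bone EC and 17.8, 17.7 and 21.2 in Vav1 control EC. Mrc1 thus had nearly equal levels in the shaft and Bone EC (log2 difference -0.12 ± 0.14, limma adjusted p = 0.51) and higher ones than in Vav1 control EC (1.10 ± 0.11, limma adjusted p = 0.0015).

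Of 12 genes through which leukocytes roll on and cross endothelium, 5 were higher and 1 lower than in Bone EC (median log2 difference 0.45 beside 0.05 over all genes), and 5 higher and 1 lower than in Vav1 control EC (median 0.59 beside -0.00). Between the whole bone groups 1 was higher and 4 lower. E-selectin (Sele) was at 69.6, 107 and 80.1 scaled FPKM in the shaft, 44.2, 27.9 and 45.6 in Bone EC and 23.5, 23.5 and 24.2 in Vav1 control EC. No whole bone library reached the lowest shaft library, and the log2 differences were 1.12 ± 0.23 (limma adjusted p = 0.0069) and 1.80 ± 0.15 (limma adjusted p = 0.0012). P-selectin (Selp) was at 59.2, 88.3 and 96.6 scaled FPKM against 34.7, 36.9 and 47.4 in Bone EC and 24.2, 25.7 and 29.2 in Vav1 control EC. Selp differed by 1.0 ± 0.21 (limma adjusted p = 0.007, 0.079 in the fit over 21 libraries) and 1.58 ± 0.18 (limma adjusted p = 0.0017) on the log2 scale.

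Icam1, which holds integrins of arrested leukocytes, was at 81.5, 131 and 126 scaled FPKM in the shaft, 72.9, 58.5 and 57.6 in Bone EC and 50.9, 46.6 and 57.1 in Vav1 control EC. The Icam1 log2 differences were 0.81 ± 0.20 (limma adjusted p = 0.015, 0.05 without Bone EC replicate 3 and 0.14 in the fit over 21 libraries) and 1.11 ± 0.18 (limma adjusted p = 0.0057). Vcam1, the ligand of VLA-4 on blood progenitors, was at 233, 344 and 307 scaled FPKM in the shaft, 165, 172 and 215 in Bone EC and 163, 120 and 139 in Vav1 control EC. It was higher in every shaft library, by 0.67 ± 0.18 (limma adjusted p = 0.019) and 1.07 ± 0.17 (limma adjusted p = 0.005) on the log2 scale. The Vcam1 call against Bone EC was lost without Bone EC replicate 2 (limma adjusted p = 0.058), without Diaphysis EC replicate 2 or 3 (limma adjusted p = 0.061 and 0.056) and in the fit over 21 libraries (limma adjusted p = 0.11). The lower member was Alcam, at 1.56, 1.08 and 1.09 scaled FPKM in the shaft and 3.07, 2.79 and 2.22 in Bone EC (log2 difference -0.72 ± 0.16, limma adjusted p = 0.0088), a call lost with the length and GC trend removed (limma adjusted p = 0.068) and under pan-endothelial scaling (limma adjusted p = 0.11).

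Of 16 genes for secreted factors that keep or instruct blood progenitors, 6 were higher and 3 lower than in Bone EC (median log2 difference 0.16). The shares over all genes were 20% and 24.0%. Against Vav1 control EC 7 were higher and 1 lower (11.5% and 12.7% over all genes, median 0.45). Cxcl12, the chemokine that retains stem cells in marrow, was at 272, 250 and 293 scaled FPKM in the shaft, 71.3, 146 and 172 in Bone EC and 134, 127 and 210 in Vav1 control EC. The shaft libraries were close to one another and above all whole bone libraries. The log2 differences of Cxcl12 were 1.15 ± 0.30 (limma adjusted p = 0.018; 1.10 and 0.052 without Diaphysis EC replicate 3) and 0.84 ± 0.18 (limma adjusted p = 0.017). Cxcl12 is also a product of mesenchymal stroma. The 15 stromal marker genes, Cxcl12 itself among them, took 0.259 to 0.270% of summed FPKM in the shaft, 0.141 to 0.168% in Bone EC and 0.202 to 0.263% in Vav1 control EC. They also took 0.0931 to 0.139% in BMC, and 0.336% in Apln+ EC replicate 1, where Cxcl12 was at 14.4 scaled FPKM. The summed share therefore does not measure stroma alone, and the part of stromal RNA in the levels of Cxcl12 was not tested. Mdk (midkine) was at 8.16, 9.84 and 12.4 scaled FPKM in the shaft and 1.86, 3.57 and 5.96 in Bone EC. For Mdk the log2 differences were 1.29 ± 0.31 (limma adjusted p = 0.013) and 0.66 ± 0.20 (limma adjusted p = 0.045). Kitl, stem cell factor, overlapped between the shaft (6.29, 5.59 and 5.53 scaled FPKM) and Bone EC (4.64, 5.32 and 6.75), with a log2 difference of 0.06 ± 0.15 (limma adjusted p = 0.76), and was higher than in Vav1 control EC by 0.97 ± 0.19 (limma adjusted p = 0.01).

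Endothelium of tissues that burn lipid carries lipoprotein lipase, fatty acid binding proteins and the factor Pparg that drives them. Of 11 such genes tested, 4 were higher and 1 lower than in Bone EC (20% and 24.0% over all genes, median log2 difference 0.53). Against Vav1 control EC 5 were higher and 1 lower (11.5% and 12.7% over all genes, median 0.05). Pparg was at 133, 165 and 196 scaled FPKM in the shaft, 84.7, 77.5 and 95.2 in Bone EC and 50.9, 65.9 and 69.1 in Vav1 control EC. It stood higher in all shaft libraries, by 0.92 ± 0.16 (limma adjusted p = 0.0037, 0.093 in the fit over 21 libraries) and 1.41 ± 0.16 (limma adjusted p = 0.0018) on the log2 scale. Fabp4 was at 3443, 3255 and 6008 scaled FPKM in the shaft, 1454, 2540 and 2401 in Bone EC and 1463, 1737 and 1752 in Vav1 control EC. On the log2 scale the differences were 0.97 ± 0.30 (limma adjusted p = 0.034) and 1.32 ± 0.22 (limma adjusted p = 0.006). The Fabp4 call against Bone EC was lost without Bone EC replicate 1 or 3, without Diaphysis EC replicate 1 or 3 (limma adjusted p = 0.053 to 0.09), without the filter on low values (limma adjusted p = 0.12) and in the fit over 21 libraries (limma adjusted p = 0.2). Lpl was at 52.5, 57.3 and 52.3 scaled FPKM in the shaft, 18.6, 33.0 and 30.1 in Bone EC and 27.3, 28.1 and 31.4 in Vav1 control EC. For Lpl the log2 differences were 1.0 ± 0.20 (limma adjusted p = 0.0067) and 0.90 ± 0.09 (limma adjusted p = 0.0015). Lpl also stands in the mesenchymal stromal list, and the part of stromal RNA in its levels was not tested. The lower member was Slc27a4, a fatty acid transporter, at 9.16, 8.44 and 9.11 scaled FPKM in the shaft, 23.9, 12.3 and 13.9 in Bone EC and 23.2, 22.2 and 25.7 in Vav1 control EC. The Slc27a4 log2 differences were -0.78 ± 0.23 (limma adjusted p = 0.025, 0.061 to 0.072 when any Diaphysis EC library was left out, 0.06 without the filter on low values, 0.21 under pan-endothelial scaling, -0.51 without Bone EC replicate 1) and -1.30 ± 0.09 (limma adjusted p = 9.5e-04).

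**Figure D3:**
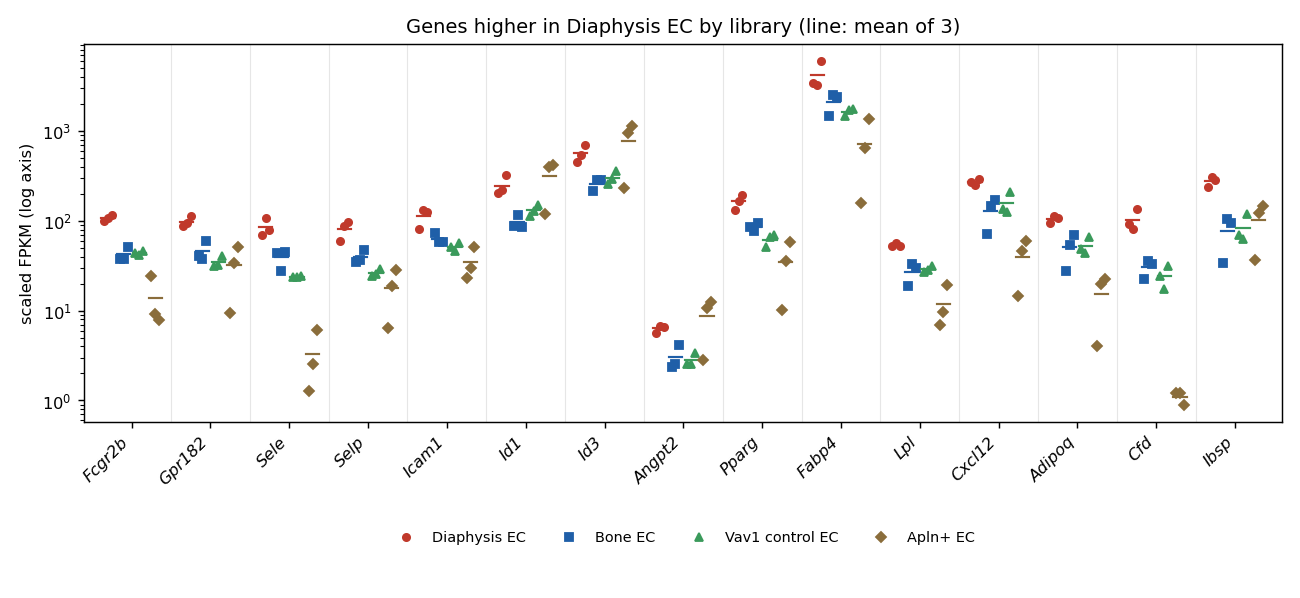
Scaled FPKM (log axis) of 15 genes called higher in Diaphysis EC, in each library of 4 groups, with a line at the mean of 3. For each gene the lowest Diaphysis EC library lies above the highest Bone EC library, and for Sele, Selp and Fcgr2b every Diaphysis EC library also lies above all Vav1 control EC and Apln+ EC libraries.

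Of 19 endothelial transcription factors tested, 6 were lower and 0 higher than in Bone EC, with a median log2 difference of -0.16 beside 0.05 over all genes. Pan-endothelial scaling gave 0 lower and 2 higher, with a median of 0.13 beside 0.32 over all genes. Erg, an ETS factor that maintains endothelial identity, was at 3.75, 3.49 and 3.94 scaled FPKM in the shaft, 6.62, 6.91 and 7.32 in Bone EC and 1.67, 2.11 and 2.24 in Vav1 control EC. The shaft lay between the whole bone groups without overlap, with log2 differences of -0.75 ± 0.11 (limma adjusted p = 0.002, 0.096 under pan-endothelial scaling) and 0.67 ± 0.12 (limma adjusted p = 0.0075). Erg was higher in BMC and LSK, at means of 12.9 and 11.6 scaled FPKM, so it does not mark endothelium alone. Of 8 flow response genes 2 were lower and 0 higher than in Bone EC, the lower count close to the 24.0% lower over all genes. Nos3, the endothelial nitric oxide synthase, was at 4.84, 4.81 and 8.28 scaled FPKM in the shaft, 13.4, 13.8 and 14.0 in Bone EC and 9.64, 9.48 and 10.5 in Vav1 control EC. For Nos3 the log2 differences were -1.11 ± 0.19 (limma adjusted p = 0.0033) and -0.66 ± 0.18 (limma adjusted p = 0.031). Piezo1, a mechanosensitive channel, was at 3.17, 3.23 and 4.04 scaled FPKM in the shaft, 11.3, 11.2 and 10.8 in Bone EC and 3.04, 3.10 and 3.48 in Vav1 control EC. Its log2 differences were -1.44 ± 0.12 (limma adjusted p = 9.9e-05, -0.85 with the length and GC trend removed) and 0.10 ± 0.12 (limma adjusted p = 0.57).

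Several of the lower genes overlap exons of a gene on the other strand, so reads of the partner can count in them where counting ignores strand. Such partners were Rtraf for Nid2, Gm11978 for Ramp3, Gm16897 for Cd34, Gm10657 for Cd276, Gm34821 for Kcne3, Gm10687 for Mcam, Fpgs for Eng, Nt5dc2 for Stab1, Atg9b and Gm15587 for Nos3, Ctu2 for Piezo1, 0610009E02Rik and Gm13568 for Notch1, Gm48682 for Nid1, Gm16048 for Npr1 and Gm16268 for Stab2, with Col4a1 and Col4a2 opposite each other. Among the higher genes they were Gm38204 for Fcgr2b, Zbtb39 for Gpr182, Gm16548 and Gm16587 for Selp, Gm47079 for Icam1, Gm43109 for Vcam1, Polr2b for Igfbp7, Junos for Jun and Txndc5 for Bmp6, and Dll4 has Gm14207. Apln, Aplnr, Cdh5, Pecam1, Col18a1, Lamb1, Efnb2, Gja4, Jag2, Notch4, Sele, Pparg, Lpl, Cxcl12, Id1, Id3, Esm1 and Angpt2 overlap none. Differences of low genes also depend on the value added before the log: with 5 in place of 1 the log2 difference of Apln from Bone EC was -1.47, that of Nid2 -1.93, that of Col18a1 -1.53 and that of Cd276 -0.75, all still called. Cldn5, Plvap, Kcne3, Mcam, Esm1, Dll4, Fbln5, Hes1, Nid1, Lama4, Lamc1, Agrn, Mgp, Igfbp7, Tek, Bmp2, Tgfbr2, Tgfb1, Stab2, Mrc1, Vcam1, Kitl and Jun were picked after their values were seen.

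Of 18 immediate early and dissociation stress genes, 11 were higher and 1 lower than in Bone EC (median log2 difference 0.63 beside 0.05 over all genes), and 7 higher and 2 lower than in Vav1 control EC (median 0.16). Jun was at 286, 326 and 349 scaled FPKM in the shaft, 187, 178 and 141 in Bone EC and 187, 183 and 223 in Vav1 control EC. It differed, on the log2 scale, by 0.93 ± 0.15 (limma adjusted p = 0.0024) and 0.71 ± 0.11 (limma adjusted p = 0.0052). The heat shock gene Hspa1b was higher as well, at 1.45 ± 0.34 (limma adjusted p = 0.012) and 1.4 ± 0.30 (limma adjusted p = 0.014), while Fosb was lower than in Bone EC at -1.25 ± 0.19 (limma adjusted p = 0.002) on the log2 scale. These genes respond to cell handling, and their part in the other differences, Id1, Icam1 and Sele included, was not tested.

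Hypoxia and glycolysis genes were higher in 7 and lower in 1 of 19 against Bone EC (median log2 difference 0.28), but higher in 2 and lower in 8 against Vav1 control EC (median -0.23). Of 22 interferon response genes 6 were higher and 1 lower than in Bone EC (20% and 24.0% over all genes), and 4 higher and 1 lower than in Vav1 control EC (11.5% and 12.7% over all genes). Bst2 (tetherin) was at 322, 374 and 462 scaled FPKM in the shaft and 197, 243 and 241 in Bone EC. For Bst2 the log2 differences were 0.75 ± 0.17 (limma adjusted p = 0.0091, 0.09 in the fit over 21 libraries) and 0.81 ± 0.13 (limma adjusted p = 0.0048). Rsad2 (viperin) was lower by both references, at -0.93 ± 0.13 (limma adjusted p = 0.0014, 0.073 under pan-endothelial scaling) and -1.15 ± 0.21 (limma adjusted p = 0.0086) on the log2 scale. Cell cycle genes were called higher in 5 and lower in 1 of 30 against Bone EC (20% and 24.0% over all genes). Against Vav1 control EC the counts were 0 and 3 of 30 (11.5% and 12.7% over all genes). In Vav1 control EC 19 of 30 were higher than in Bone EC (19.2% over all genes). Of 18 cholesterol synthesis genes 3 were higher and 2 lower than in Bone EC (20% and 24.0% over all genes). Only 3 of 19 limb position genes (Hox, Tbx4, Tbx5 and Pitx1 among them) were expressed enough to be tested, and 0 of these passed: Hoxd8 was at 2.64, 2.0 and 2.70 scaled FPKM in the shaft and 3.19, 4.18 and 2.67 in Bone EC.

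**Figure D4:**
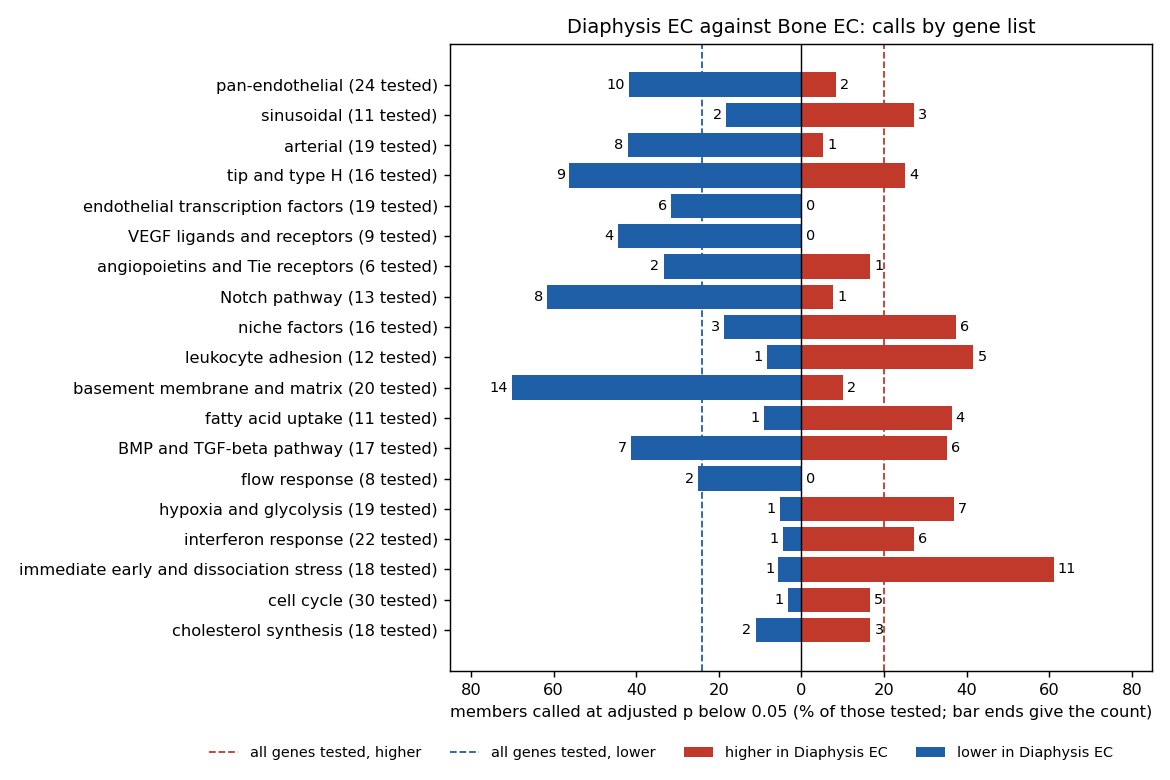
Percent of the tested members of 19 gene lists called higher (right, red) or lower (left, blue) in Diaphysis EC than in Bone EC at adjusted p below 0.05, with the counts at the bar ends and dashed lines at the 20% higher and 24.0% lower of all genes tested. The blue bar of basement membrane genes (14 of 20) and the red bar of immediate early genes (11 of 18) reach furthest from the dashed lines.

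The blood part of the libraries differed. Neutrophil genes took 8.65 to 10.3% of summed FPKM in the shaft, 10.4 to 11.4% in Bone EC and 16.3 to 17.1% in Vav1 control EC, and of 17 tested 3 were higher and 1 lower than in Bone EC but 0 higher and 16 lower than in Vav1 control EC. Erythroid genes took 6.15 to 7.27% in the shaft, 9.32 to 10.3% in Bone EC and 8.38 to 14.1% in Vav1 control EC. Slc4a1 (band 3), a red cell membrane protein, was at 62.2, 55.3 and 38.6 scaled FPKM in the shaft and 197, 148 and 163 in Bone EC, a log2 difference of -1.70 ± 0.20 (limma adjusted p = 5.2e-04). B lymphoid genes took 0.0728 to 0.0767% in the shaft and 0.0772 to 0.136% in Bone EC, with 5 of 14 lower and 0 higher (24.0% and 20% over all genes). Plasma cell genes varied between the shaft libraries, at 2.53, 0.989 and 2.24% beside 0.608 to 0.946% in Bone EC, and so did megakaryocyte genes, at 0.00621, 0.0818 and 0.145% beside 0.0290 to 0.0394%. Some genes of the endothelial lists are also expressed in blood cells. In BMC, Notch1 had a mean of 22.7 scaled FPKM, Smad7 of 21.8 and Slc27a4 of 78.1, each above its Bone EC mean. Lfng, at 25.4, and Tgfb1, at 42.6, came near theirs. Apln, Aplnr and Col18a1 were at 0.529, 0.545 and 0.0415 in BMC. The part of blood cells in the differences was not tested.

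Of 13 mesenchymal stromal genes tested, 7 were higher and 1 lower than in Bone EC (20% and 24.0% over all genes, median log2 difference 0.63). Against Vav1 control EC 5 were higher and 1 lower (11.5% and 12.7% over all genes, median 0.44). Cxcl12 and Lpl, described above, are among the higher members in both comparisons. Of 7 mural genes tested, 2 were higher and 3 lower than in Bone EC (20% and 24.0% over all genes, median -0.28). Adipoq (adiponectin), made by marrow stromal cells and fat, was at 94.7, 112 and 109 scaled FPKM in the shaft, 27.9, 54.4 and 70.2 in Bone EC and 48.1, 44.4 and 66.4 in Vav1 control EC. The Adipoq log2 differences were 1.12 ± 0.30 (limma adjusted p = 0.019) and 1.01 ± 0.15 (limma adjusted p = 0.0046). Without Diaphysis EC replicate 2 or 3 the call against Bone EC was lost (limma adjusted p = 0.054 and 0.053), as it was without the filter on low values (limma adjusted p = 0.051) and in the fit over 21 libraries (limma adjusted p = 0.067). Bone matrix genes took 0.0656 to 0.0880% in the shaft and 0.0255 to 0.0454% in Bone EC, with the osteocyte genes Mepe and Sost at 0 in all 6 libraries. Of 7 such genes tested, 2 were higher and 1 lower than in Bone EC (median log2 difference -0.37), and 1 higher and 4 lower than in Vav1 control EC (median -0.51). Ibsp, bone sialoprotein, held most of the summed share in the shaft and was at 241, 311 and 284 scaled FPKM in the shaft, 33.7, 104 and 94.9 in Bone EC and 68.8, 62.3 and 118 in Vav1 control EC. Its log2 differences were 1.98 ± 0.39 (limma adjusted p = 0.0057) and 1.80 ± 0.23 (limma adjusted p = 0.0026). Col1a1, the main collagen of osteoblasts, ran the other way at 0.529, 0.309 and 0.193 scaled FPKM in the shaft, 2.16, 3.03 and 10.3 in Bone EC and 5.12, 1.58 and 2.97 in Vav1 control EC, with log2 differences of -1.97 ± 0.43 (limma adjusted p = 0.0087) and -1.57 ± 0.29 (limma adjusted p = 0.0087). So Ibsp and Col1a1, both of the osteoblast list, did not move together.

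Cartilage genes were at most 3.62e-04% of summed FPKM in the shaft and 9.00e-04 to 0.00137% in Bone EC, with Acan, Col9a1, Matn3 and Ihh at 0 in all 6. The adipocyte list, whose defining genes Plin1, Lep and Ucp1 were at 0 in all 6 libraries, had 3 tested members (Adipoq, Fabp4 and Cfd), all higher than in Bone EC and in Vav1 control EC, and most of its summed share was Fabp4. Bone EC replicate 2 held skeletal muscle RNA: Acta1 was at 822 scaled FPKM there beside 0 and 0.393 in the other Bone EC libraries and 0.415, 0 and 0.253 in the shaft. Mitochondrially encoded genes took 1.38 to 1.83% in the shaft, 2.14 to 3.06% in Bone EC and 1.83 to 2.36% in Vav1 control EC, and of 12 tested 0 were higher and 8 lower than in Bone EC. Ribosomal protein genes had 0 calls of 20 in the same test (0 also with TPM, 2 higher under pan-endothelial scaling).

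**Figure D5:**
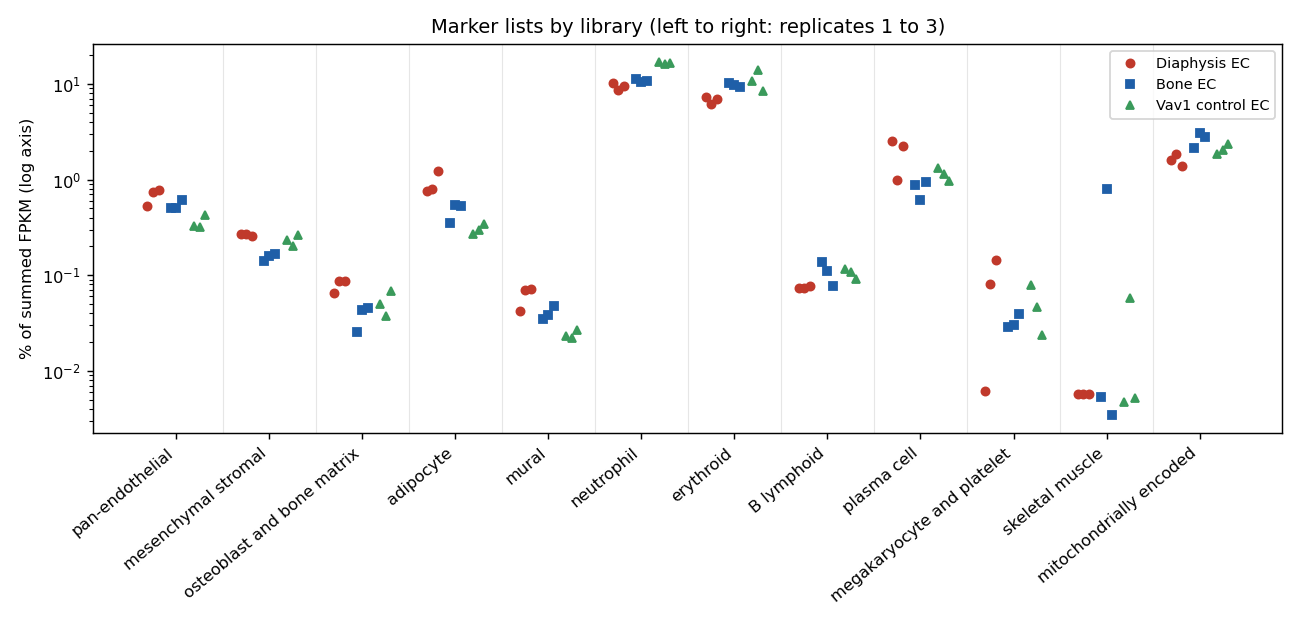
Percent of summed FPKM (log axis) held by 12 marker lists in each library of Diaphysis EC, Bone EC and Vav1 control EC. Mesenchymal stromal and adipocyte lists (the latter mostly Fabp4) are higher in all Diaphysis EC libraries than in all Bone EC libraries, erythroid genes are lower, and Bone EC replicate 2 stands apart in skeletal muscle genes at 0.803%.

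The lowest genes relative to Bone EC were mostly short or antisense features. AC138368.1, mmu-mir-6340, DLEU2_5, Mir762, mmu-mir-130c and CR974451.1 were listed at 0 in all libraries of Diaphysis EC, Vav1 control EC and Apln+ EC, and at means of 23.2 to 101 scaled FPKM in Bone EC. Fam166a, which lies opposite the tubulin gene Tubb4b, was at 0, 0.301 and 0.161 scaled FPKM in the shaft and 35.0, 43.8 and 44.9 in Bone EC, and Syn3, opposite Timp3, at 0.0242, 0 and 0.0368 against 10.5, 13.5 and 15.1. In Vav1 control EC, Fam166a was at 0.303, 0.433 and 0.266 scaled FPKM and Syn3 at 0.0462, 0.00991 and 0.

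To lessen the weight of blood RNA, genes below a mean of 1 FPKM in both BMC and LSK were taken alone. Of 825 such genes, 157 were higher and 206 lower than in Bone EC, 44.0% in all (19.0% higher and 25% lower), close to the share over all genes. Without overlapping genes 108 of 520 were higher and 86 lower in the same fit. Of 10 genes with the largest rises among them, Cfd, the complement factor adipsin, was at 92.9, 80.9 and 135 scaled FPKM in the shaft, 22.8, 35.4 and 33.3 in Bone EC and 24.1, 17.4 and 31.2 in Vav1 control EC, and at 0 in BMC and LSK. In log2 terms the differences were 1.71 ± 0.23 (limma adjusted p = 0.0011) and 2.06 ± 0.23 (limma adjusted p = 0.0018). Rgs4, an inhibitor of G protein signalling, was at 185, 280 and 240 scaled FPKM in the shaft, 80, 69.5 and 97.9 in Bone EC and 56.6, 64.5 and 66.5 in Vav1 control EC. Rgs4 was higher in all shaft libraries, at 1.49 ± 0.19 (limma adjusted p = 8.0e-04) and 1.89 ± 0.15 (limma adjusted p = 0.0011) on the log2 scale. Ubd, a ubiquitin-like modifier induced by cytokines, was at 405, 593 and 707 scaled FPKM against 129, 194 and 317 in Bone EC and 129, 128 and 140 in Vav1 control EC. For Ubd the log2 differences were 1.47 ± 0.34 (limma adjusted p = 0.011) and 2.08 ± 0.18 (limma adjusted p = 0.0012).

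Sectm1a, Crygn, Scgb3a1 and Thrsp were likewise higher in the shaft than in both whole bone groups. Sectm1a was at 10, 14.6 and 16.3 scaled FPKM in the shaft against 3.07, 1.99 and 6.17 in Bone EC, and its log2 differences were 1.70 ± 0.32 (limma adjusted p = 0.0048) and 2.12 ± 0.19 (limma adjusted p = 0.0012). For Crygn, a lens crystallin gene, the log2 differences were 1.55 ± 0.34 (limma adjusted p = 0.0087) and 2.08 ± 0.22 (limma adjusted p = 0.0015). Scgb3a1, a secretoglobin, differed by 1.49 ± 0.20 (limma adjusted p = 9.7e-04) and 1.56 ± 0.18 (limma adjusted p = 0.0018), and Thrsp, a regulator of lipid synthesis, by 1.48 ± 0.23 (limma adjusted p = 0.002) and 1.45 ± 0.22 (limma adjusted p = 0.0046) on the log2 scale. Wisp2, a matricellular protein of stromal cells, was at 23.4, 27.1 and 36.7 scaled FPKM in the shaft and 3.83, 6.48 and 13.8 in Bone EC. For Wisp2 the log2 differences were 1.87 ± 0.38 (limma adjusted p = 0.0064) and 1.41 ± 0.23 (limma adjusted p = 0.0057). The lower genes poor in blood RNA were led by Syn3, Nid2, Apln, Col18a1, Tsix, Hspg2, Podxl, Aplnr, Lamb1 and Npr1, of which apelin, its receptor and the basement membrane genes are described above. Npr1, the natriuretic peptide receptor, was at 3.40, 3.80 and 4.77 scaled FPKM in the shaft, 13.5, 16.2 and 21.2 in Bone EC and 4.10, 4.0 and 5.0 in Vav1 control EC. For Npr1 the log2 differences were -1.84 ± 0.18 (limma adjusted p = 2.4e-04) and -0.10 ± 0.14 (limma adjusted p = 0.63). Across all genes, Gadd45g, a stress-induced regulator of growth, was among those furthest above Bone EC, at 188, 282 and 306 scaled FPKM in the shaft, 87.8, 78.8 and 82.7 in Bone EC and 102, 108 and 122 in Vav1 control EC (log2 differences 1.60 ± 0.19 and 1.21 ± 0.18, limma adjusted p = 5.6e-04 and 0.0038). Also at or above its log2 difference from Bone EC were Snord55 (2.64), Gpx3 (1.88), Serpine2 (1.75), Sfrp4 (1.69) and Serping1 (1.60). The Snord55 call was lost with voom, and the Sfrp4 call without the filter on low values and without Diaphysis EC replicate 2 or 3.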

How the data were processed

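Per the labels, cDNA of sorted cells was made with SMART-Seq v4. Tools in the submitters' processing notes are bcl2fastq 2.19.1.403, TopHat2 2.1.1, HTSeq 0.6.1 and DESeq2 1.18.1, with the build mm10. The strand setting of counting is not given in the sources used here. The authors deposited FPKM per gene in 4 tables. Of 38926 rows, 27 named by dates were left out. Columns were divided by median-of-ratios factors, genes reaching 1 FPKM in 3 or more of 6 columns were kept, and log2(scaled FPKM + 1) was tested with limma 3.58.1 in R 4.3.3 (trend, Benjamini-Hochberg adjusted p below 0.05), after tests on simulated data. With 3 against 3 an exact permutation test cannot go below 0.1. Reads were recovered from FPKM steps (tolerance 0.005) for voom. Gene positions come from GENCODE vM21, promoters from RefSeq. Text genes are drawn from reporter and check genes, the largest differences overall and among genes poor in blood RNA, the largest called members of each list, and some picked after their values were seen. The members and lists were chosen with earlier results of these data known. Alternatives were other scalings, filters, pseudocounts, fits, a replicate block and leaving out each library.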

Additional observations from a re-analysis of the deposited data

How the results depend on the processing

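Of 175 named genes tested against Bone EC, 163 were called, 96 of these in every setting that tested them, 67 were lost in at least 1 setting and 0 reversed. Settings with other filters left some genes untested, and such a gene counts as kept there. The setting without overlapping genes, for one, did not test Nid2, Ramp3, Cd34, Cd276, Col4a1 or Col4a2. A single fit over 21 libraries lost 47, pan-endothelial scaling 25, no filter on low values 24 and the removal of the length and GC trend 12. A pseudocount of 5 moved 62 values by over 1.5 times. For Diaphysis EC against Bone EC the 5575 calls became 3582 among genes with a mean of at least 5 FPKM and 2692 without overlapping genes, both of which test fewer genes. Leaving out 1 library gave 3683 to 4150 calls, the lowest without Bone EC replicate 3. For Vav1 control EC against Bone EC the same settings gave 3364 and 2423, pan-endothelial scaling gave 8071, and leaving out 1 library 3127 to 4319. Diaphysis EC against Vav1 control EC gave 1827 calls with no filter, 1679 without overlapping genes, 328 in the fit over 21 libraries and 1499 to 2495 with 1 library left out; the cause was not tested. The 363 calls among genes poor in blood RNA became 127, 173 and 222 to 286 with the mean filter, without overlapping genes and with 1 library left out. The replicate numbers did not pair the libraries (correlations of deviations 0.112, -0.083 and 0.093), and with a replicate block the counts were 5290, 5422 and 2722, and 371 for genes poor in blood RNA. Of the 3 groups compared, Bone EC has the fewest reads, which limits what can be seen of low genes in it.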
